A study of Mus musculus with 22 samples.

Results

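Fibrillar collagens and the enzymes that mature and crosslink them were followed in mouse loose connective tissue that had been stretched or shortened, in the animal or as an explant. The genes were 6 collagen chains, Col1a1, Col1a2, Col3a1, Col5a1, Col5a2 and Col5a3, with the crosslinking enzymes Lox and Loxl2 and the prolyl hydroxylase subunit P4ha2. A gene was read from probes annotated to it alone, and from the brightest of these over all samples where there were several. By that rule 8 of the 9 genes were measured, of 12393 genes in all. The single Loxl2 probe is also annotated to Gm21451, so Loxl2 has no value here.

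Loose subcutaneous connective tissue of the trunk came from male C57BL/6 mice weighing 19 to 24 g. Each of 11 animals gave a stretched and a shortened piece, assigned at random, and RNA of the 22 pieces was measured on arrays. The groups were ex vivo stretched and ex vivo shortened tissue of 4 animals, and in vivo stretched and in vivo shortened tissue of another 7 animals. How hard and how long the tissue was stretched, and how old the mice were, is not given in the labels used here.

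Fibroblasts make fibrillar collagens as long procollagen chains. Prolyl hydroxylases in the endoplasmic reticulum, with P4ha2 as one of the catalytic subunits, modify the chains so that the triple helix is stable, and proteases trim the chains outside the cell. Type I collagen carries most of the strength of skin and fascia, type III forms thinner and more extensible fibrils beside it, and type V chains sit inside type I fibrils and set their width. Lysyl oxidases, of which Lox is the best known, then oxidise lysines so that neighbouring molecules crosslink and the fibre stiffens.

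Values are the deposited signals on the log2 scale, so a difference of 1 is a doubling. Errors of differences are standard errors (SE) that limma estimated. The median signal of an array was 6.85 to 6.90 ex vivo and 7.28 to 7.41 in vivo, so the arrays of each setting looked normalized apart. A gene passed where its p, adjusted over all 22626 probes, was under 0.05. The 10 fibroblast markers averaged 9.37 to 10.11 ex vivo and 11.26 to 11.87 in vivo. Skeletal muscle markers, which plain connective tissue should hardly hold, averaged 5.49 to 12.45 in ex vivo stretched, 5.77 to 6.91 in ex vivo shortened, 5.28 to 13.04 in in vivo stretched and 5.31 to 12.29 in in vivo shortened pieces. The gap between 3' and 5' Gapdh control probes, which widens in degraded RNA, was 0.91 in stretched explant 1, 0.05 to 0.19 in the other 7 explants, 0.11 to 0.27 in in vivo animals 1 to 3 and 0.87 to 3.61 in in vivo animals 4 to 7. In whole tissue, fewer cells of a type and less RNA per cell cannot be told apart.

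The promoters of 3 genes are given, chosen on their brightest probes. P4ha2 had the widest stretch difference among the measured genes ex vivo, and Col5a1 had the widest difference between settings. Col1a2 stands for type I collagen beside them. Each run holds the 250 bases before and the 50 from the annotated start, 5' to 3', from RefSeq on GRCm38.p6. They lie at chr11:54100674-54100973 for P4ha2, chr2:27886175-27886474 for Col5a1 and chr6:4505368-4505667 for Col1a2, all on the plus strand. Capitals mark ACGTG, the core that oxygen-sensing HIF factors are known to bind, and CCAAT, a common promoter box, on either strand.
P4ha2: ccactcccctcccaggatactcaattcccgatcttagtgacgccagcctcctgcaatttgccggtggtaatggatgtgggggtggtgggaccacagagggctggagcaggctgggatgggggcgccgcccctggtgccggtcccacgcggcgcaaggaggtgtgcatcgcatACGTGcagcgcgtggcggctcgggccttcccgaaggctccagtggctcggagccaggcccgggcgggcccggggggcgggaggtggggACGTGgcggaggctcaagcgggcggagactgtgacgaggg
Col5a1: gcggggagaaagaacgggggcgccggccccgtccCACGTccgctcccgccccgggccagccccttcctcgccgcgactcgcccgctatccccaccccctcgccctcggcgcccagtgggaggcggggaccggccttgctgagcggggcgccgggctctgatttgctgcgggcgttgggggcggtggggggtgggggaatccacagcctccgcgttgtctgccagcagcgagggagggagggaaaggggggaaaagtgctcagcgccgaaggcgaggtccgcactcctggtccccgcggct
Col1a2: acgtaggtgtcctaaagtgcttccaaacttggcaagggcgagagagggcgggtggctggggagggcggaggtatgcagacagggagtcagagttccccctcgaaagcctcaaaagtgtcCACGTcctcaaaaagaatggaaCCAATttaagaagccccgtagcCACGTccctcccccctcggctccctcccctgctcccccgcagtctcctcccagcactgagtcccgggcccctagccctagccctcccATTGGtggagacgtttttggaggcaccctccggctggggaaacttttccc
The P4ha2 window holds ACGTG 78 bases before the start and again at base 11 after it, both on the plus strand. The Col5a1 window holds it once, on the other strand, 216 bases before the start. The Col1a2 window holds it on the other strand 131 and 87 bases before the start, and holds CCAAT 109 bases before the start on the plus strand and at base 1 on the other strand. The Col3a1 and Col5a3 windows hold no ACGTG. Of 32851 promoters of the same length, 19.6% hold ACGTG and 8.21% hold it at least 2 times, while 37.4% hold CCAAT. A match describes these letters only, and a table entry was matched for 5 of the 9 genes.

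Most fibrillar collagens were lower in explants than in tissue held in the animal, and the crosslinking enzyme Lox was higher. In shortened tissue, Col1a1, Col1a2, Col3a1, Col5a1 and Col5a2 fell and Lox and P4ha2 rose ex vivo relative to in vivo, while Col5a3 did not pass. In stretched tissue, Col1a1, Col1a2, Col3a1, Col5a1, Col5a2 and Col5a3 fell and Lox rose, and P4ha2 did not pass. These differences are relative to the median probe of each array, since the arrays of the settings differ in distribution. Setting and the authors' processing of its arrays cannot be told apart, and the animals differ too.

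The 7 of 8 genes that passed in shortened tissue stood against 66.5% of all probes, 36.9% higher and 29.6% lower. In stretched tissue they were again 7 of 8, against 63.5% of all probes, 35.1% higher and 28.4% lower. Most probes thus differed between the settings, and the count of these genes is read against that. Without centring, the median probe differed by -0.38 ex vivo minus in vivo in both comparisons. The share of calls that were higher ex vivo was then 23.8% instead of 55.5% in shortened and 23.3% instead of 55.3% in stretched tissue. With all samples quantile normalized it was 48.7% in shortened and 49.5% in stretched tissue.

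Col5a1, the chain that nucleates fibrils, showed the widest gap. Its signal was 8.13, 8.09, 8.06 and 8.01 in the stretched explants of animals 1 to 4, against 11.37 to 11.82 with a median of 11.64 in in vivo stretched tissue. In shortened explants it was 8.40, 8.24, 8.27 and 7.72, against 11.58 to 11.91 with a median of 11.74 in in vivo shortened tissue. Every explant lay far below every in vivo piece. The centred difference was -3.11 ± 0.10 in stretched tissue, 8.65-fold lower ex vivo (adjusted p = 1.26e-10). In shortened tissue it was -3.14 ± 0.12, 8.81-fold lower (adjusted p = 2.62e-10), wider than at 98.6% of probes. Both other Col5a1 probes fell by more, by -3.69 and -3.72 in shortened tissue.

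Col5a2, the partner chain in type V collagen, read 10.83 to 11.24 in stretched explants against 12.33 to 12.82 in in vivo stretched tissue, and 10.98 to 11.33 in shortened explants against 12.45 to 12.88 in in vivo shortened tissue. It fell by 1.19 ± 0.11 in stretched tissue, 2.28-fold lower ex vivo, and by 1.07 ± 0.10 in shortened tissue, 2.10-fold lower. The third type V chain behaved otherwise. Col5a3 read 9.46, 9.42, 8.73 and 9.48 in stretched explants against 9.33 to 10.88, with a median of 10.62, in in vivo stretched tissue. Its difference was -0.74 ± 0.26 in stretched tissue (adjusted p = 0.0246) and -0.11 ± 0.22 in shortened tissue (adjusted p = 0.670), and its groups overlapped in both. The stretched call was lost without stretched explant 3, with -0.55 and an adjusted p of 0.0983. It was also lost against in vivo animals 1 to 3 alone, with -0.59 and an adjusted p of 0.203. Without the pairs whose pieces differed most in muscle signal it was lost too, with -0.53 and an adjusted p of 0.281.

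Both chains of type I collagen fell. Col1a1, the chain that makes up most of a type I molecule, read 11.26, 11.41, 10.86 and 10.61 in stretched explants, against 11.99 to 13.46 with a median of 13.05 in in vivo stretched tissue. In shortened explants it read 11.55, 11.34, 11.35 and 11.26, against 12.26 to 13.46 with a median of 13.12 in in vivo shortened tissue. The settings did not overlap, though in vivo animals 1 and 3 lay well below the other in vivo animals. The difference was -1.43 ± 0.26 in stretched tissue, 2.69-fold lower ex vivo, and -1.19 ± 0.21 in shortened tissue, 2.29-fold lower. Both are among in vivo animals 1 to 3, which had the narrow Gapdh gap. Against these 3 animals alone, Col1a1 was lower by -0.98 ± 0.26 in stretched and -0.78 ± 0.17 in shortened tissue, and still passed (adjusted p = 0.0131 and 0.00251).

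Col1a2, the other type I chain, read 12.33 to 12.95 in stretched explants and 12.74 to 13.08 in shortened explants, against 13.77 to 14.06 in in vivo stretched and 13.87 to 14.04 in in vivo shortened tissue. It fell by 0.75 ± 0.11 in stretched and by 0.59 ± 0.06 in shortened tissue. Col3a1, the chain of type III collagen, read 12.74 to 13.03 in stretched explants and 12.55 to 12.88 in shortened explants, against 13.59 to 13.76 in in vivo stretched and 13.56 to 13.75 in in vivo shortened tissue. It fell by 0.32 ± 0.07 in stretched and by 0.50 ± 0.06 in shortened tissue. Neither gene overlapped between the settings. The stretched Col3a1 difference was -0.24 and no longer passed (adjusted p = 0.0892) without the pairs whose pieces differed most in muscle signal.

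**Figure D1:**
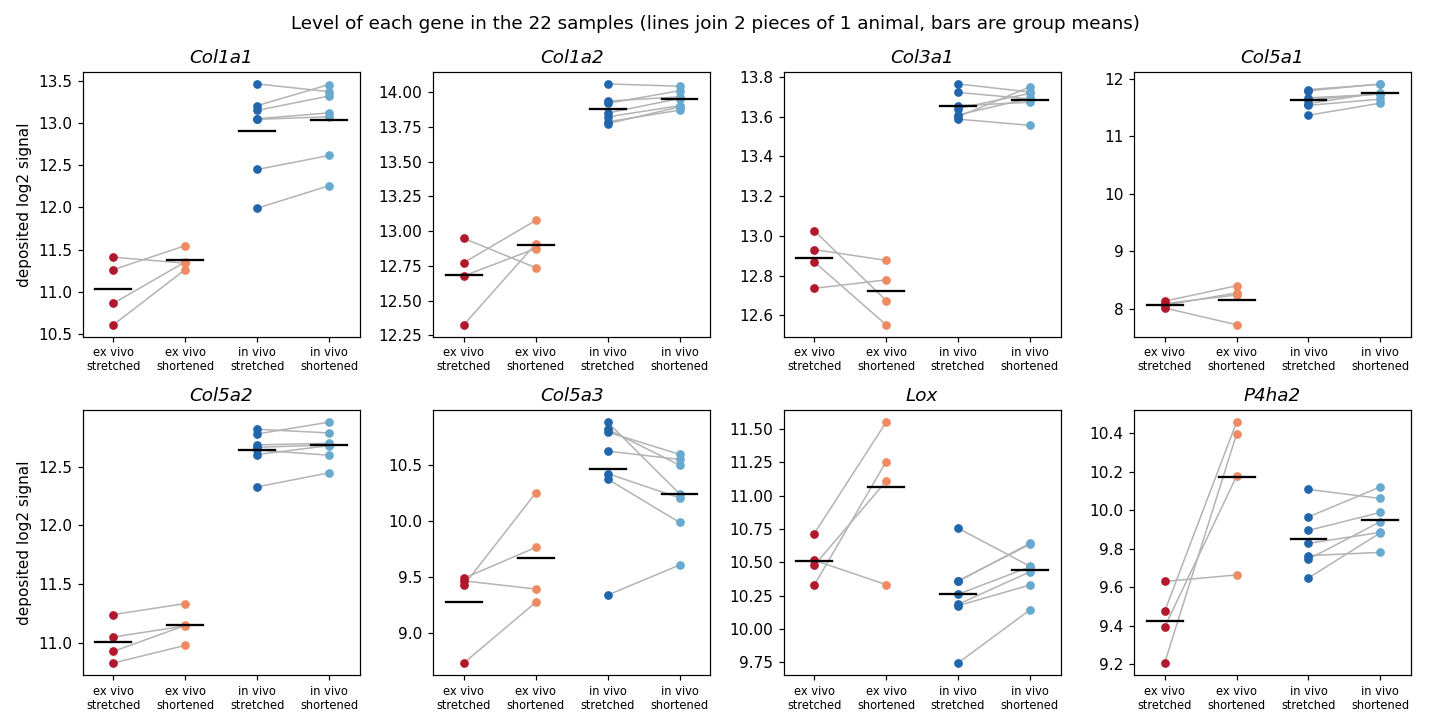
Deposited log2 signal of each measured gene in ex vivo stretched, ex vivo shortened, in vivo stretched and in vivo shortened tissue, with 1 point a sample, thin lines joining the pieces of 1 animal and bars at group means. Every explant lies below every in vivo piece for Col1a1, Col1a2, Col3a1, Col5a1 and Col5a2, while Lox and P4ha2 are highest in shortened explants.

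The size of these falls depended on the probe. The brightest probes of Col1a2 and Col3a1 read 13.56 to 14.06 in vivo, on arrays whose brightest probe read 14.10 to 14.38. The dimmer probe of Col1a2 gave -2.53 ± 0.10 in shortened tissue where the brightest gave -0.59, and that of Col3a1 gave -2.09 ± 0.15 where the brightest gave -0.50. Likewise the dimmer probes gave -2.42 ± 0.29 for Col1a1 and -2.24 ± 0.14 for Col5a2. For these 4 genes and for Col5a1, every probe pointed to a lower signal ex vivo. Whether signal near the top of the arrays compressed the differences of the brightest probes was not tested.

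**Figure D2:**
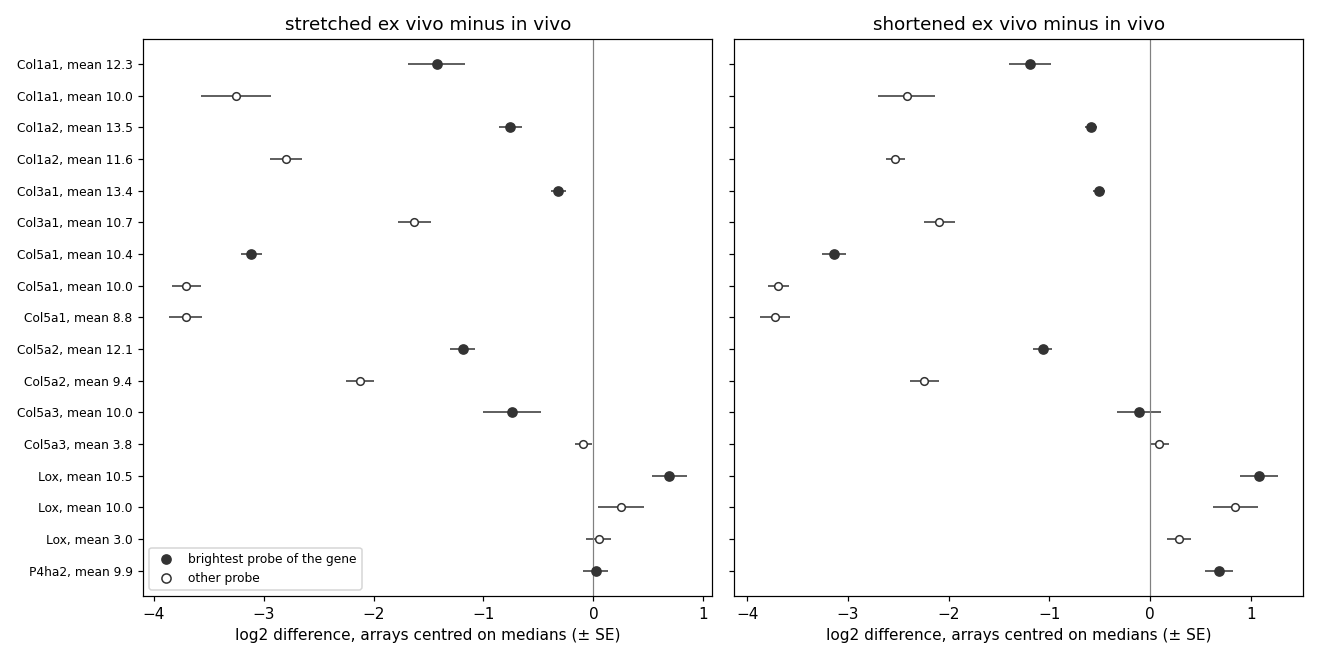
Log2 difference ex vivo minus in vivo with its SE, arrays centred on their medians, for each probe of the measured genes in stretched and in shortened tissue. Labels give the mean signal of the probe over 22 samples. The dimmer probes of Col1a1, Col1a2, Col3a1 and Col5a2 show differences of -1.63 to -3.25, and their brightest probes -0.32 to -1.43.

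Lox and P4ha2 ran the other way. Lox read 10.51, 10.71, 10.33 and 10.48 in stretched explants, against 9.74 to 10.76 with a median of 10.26 in in vivo stretched tissue. In shortened explants it read 10.33, 11.55, 11.26 and 11.11, against 10.14 to 10.64 with a median of 10.47 in in vivo shortened tissue. Relative to the array median, Lox rose 1.61-fold in stretched tissue (0.69 ± 0.16, adjusted p = 0.00193) and 2.11-fold in shortened tissue (1.08 ± 0.19, adjusted p = 0.000233). On the values as deposited the stretched difference was 0.25 and did not pass (adjusted p = 0.164), while the shortened difference was 0.62 and did (adjusted p = 0.00912). The mean of its 3 probes, 1 of them dim at 3.05, gave 0.33 in stretched tissue, which did not pass either (adjusted p = 0.0561). As deposited, the next brightest Lox probe averaged 9.70 in stretched explants against 9.90 in in vivo stretched tissue. In shortened tissue that probe averaged 10.46 ex vivo against 10.08 in vivo.

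P4ha2 rose in shortened tissue by 0.68 ± 0.14, 1.61-fold (adjusted p = 0.000949), a call that was lost on the values as deposited, where the difference was 0.22 (adjusted p = 0.149). In stretched tissue its difference was 0.02 ± 0.11 (adjusted p = 0.891), and its sign turned with scaling, to -0.42 as deposited (adjusted p = 0.00314). Of the 8 genes, 6 had groups that did not overlap between the settings in shortened tissue and 5 had such groups in stretched tissue. Over all probes these shares were 52.2% and 46.4%.

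The order of the 4 groups, on centred signals, was therefore not the same for all genes. Col1a1, Col1a2, Col5a1 and Col5a2 were highest in in vivo shortened tissue, followed by in vivo stretched, ex vivo shortened and ex vivo stretched tissue, and Col3a1 had the explant groups in the opposite order. For these 5 genes the only neighbours in that order that did not overlap were the in vivo stretched and the ex vivo shortened group, or for Col3a1 the in vivo stretched and the ex vivo stretched group. Lox was highest in shortened explants, then in stretched explants, in vivo shortened and in vivo stretched tissue, and its stretched explants did not overlap with in vivo shortened tissue. For P4ha2 and Col5a3 every neighbouring pair of groups overlapped.

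Other genes of the collagen pathway were read in the same contrast of shortened tissue. Relative to the array median, 6 of 15 measured genes for collagen hydroxylation and folding rose and 6 fell, beside 36.9% of all probes higher and 29.6% lower. On the values as deposited 4 rose and 9 fell, beside 17.4% of all probes higher and 55.7% lower. Plod2, which hydroxylates telopeptide lysines for crosslinks, rose 11.9-fold ex vivo (3.58 ± 0.18). Its signal was 9.90 to 10.80 in shortened explants, against 7.05 to 7.89 in in vivo shortened tissue. P4ha1, the main prolyl hydroxylase subunit, rose by 1.21 ± 0.09, and Plod1, the lysyl hydroxylase of the helix, by 1.14 ± 0.11, while Crtap, of the prolyl 3-hydroxylation complex, fell by 1.10 ± 0.09. Serpinh1, the collagen chaperone HSP47, differed by 0.06 ± 0.10 and did not pass (adjusted p = 0.578).

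Genes for trimming procollagen were lower in explants, with 4 of 5 measured genes falling and none rising, centred or as deposited. Pcolce2 fell by 2.77 ± 0.12 and Pcolce by 1.22 ± 0.13, both enhancers of C-propeptide removal, and Bmp1, the protease itself, fell by 2.01 ± 0.13. Among the other lysyl oxidases, Loxl3 rose by 1.48 ± 0.10, Loxl1, known for elastic fibres, fell by 1.74 ± 0.17, and Loxl4 differed by -0.30 ± 0.15 (adjusted p = 0.0999). Of 9 proteoglycans that bind fibrils, 4 fell, the largest being Aspn, with a difference of -4.51 ± 0.23, and Ogn, with -2.18 ± 0.11. Another 3 were higher after centring only, Prelp, Kera and Epyc, named after their values were seen. As deposited none of the 9 rose and 6 fell, with differences of 0.10 for Prelp, -0.09 for Kera and -0.11 for Epyc, none of which passed. Kera and Epyc lay near the low end of the arrays, averaging 2.94 and 2.86 in shortened explants against 3.02 and 2.97 in in vivo shortened tissue. Lum fell by 1.02 ± 0.12.

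Among 6 genes that break down or take up collagen, 5 were higher and 1 lower after centring, and 3 were higher and 1 lower as deposited. The calls lost as deposited were Mmp2, with 0.19 (adjusted p = 0.0516), and Mmp8, with -0.14 (adjusted p = 0.229), the last named after its values were seen. The collagenase Mmp13 read 6.76 to 8.95 in shortened explants, against 2.91 to 3.12 in in vivo shortened tissue, a difference of 5.43 ± 0.30. Ctsk, a collagen-cutting lysosomal protease, rose 4.11-fold and the gelatinase Mmp2 rose 1.57-fold after centring, while Mrc2, the uptake receptor for collagen fragments, fell by 0.84 ± 0.14. Genes known to rise in low oxygen were higher too, with 11 of 12 rising and 1 falling and a median of 1.73, beside -0.01 over all genes, and the counts were the same as deposited. Egln3 rose by 5.41 ± 0.22 and Ero1a by 3.87 ± 0.13. Of 11 genes tied to TGF-beta, a growth factor that drives collagen synthesis, 4 rose and 5 fell after centring, while none rose and 5 fell as deposited. Beside known targets that list holds the ligand genes Tgfb1, Tgfb2 and Tgfb3, named after their values were seen. As deposited these ligand genes differed by 0.25, -2.47 and -2.14, and Tgfb2 and Tgfb3 passed. Of 3 other fibrillar collagens 2 fell after centring and 3 as deposited.

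Markers of cell types moved with the same contrast. After centring, 36.9% of all probes were higher and 29.6% lower. Beside that, 9 of 10 fibroblast markers fell and 1 rose, with a median of -1.61. Of 7 macrophage markers 6 fell, with a median of -2.70. Of 5 adipocyte markers 3 fell, with a median of -1.95, and their mean signal was 8.03 to 10.07 in shortened explants against 9.49 to 11.78 in in vivo shortened tissue. Of 5 endothelial markers 3 rose and 1 fell, and of 6 keratinocyte markers 2 rose and 2 fell. Of 10 skeletal muscle and 4 smooth muscle markers none passed, with medians of -1.54 and -0.05. As deposited, with 17.4% of all probes higher and 55.7% lower, 9 fibroblast, 6 macrophage and 5 adipocyte markers fell and none of these rose. Of the endothelial markers 1 then rose and 2 fell. Of the keratinocyte markers none rose and 2 fell, and 1 skeletal muscle marker fell. The part of these cell types in the lower collagen signals was not tested.

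Within explants, the design asked how stretched tissue differed from shortened tissue of the same animal. On the brightest probes the largest difference was in P4ha2, which was lower in the stretched piece of all 4 animals, as were 9.32% of all probes. Lox, Col5a3 and Col1a1 were lower in 3 of 4. Dimmer probes differed by more for Col1a1, with -0.85 ± 0.26, and slightly more for Lox, with -0.76 ± 0.13. None of the 8 genes passed the adjusted threshold, nor did any of the 22626 probes (0%). At an unadjusted p under 0.05, 4 of the 8 genes were lower and none higher, against 11.1% of all probes, 5.23% higher and 5.85% lower. The median difference of the 8 genes was -0.28, beside 0.01 over all genes.

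P4ha2 read 9.63, 9.21, 9.48 and 9.39 in the stretched explants of animals 1 to 4, against 9.66, 10.40, 10.46 and 10.18 in their shortened explants. The groups did not overlap, by a narrow margin at animal 1, and the other animals differed by 0.78 or more. Groups without overlap were found at 5.99% of all probes, 3.19% with the stretched group lower. The fitted difference was -0.75 ± 0.18, or 0.596-fold (adjusted p = 0.363), wider than at 98.9% of probes.

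Lox differed by -0.55 ± 0.18 (adjusted p = 0.389), and the levels given above show that shortened explants 2 to 4 stood above every stretched explant while shortened explant 1 stood among them. Within animals 1 to 4 the Lox differences were 0.18, -0.84, -0.93 and -0.63. The next brightest Lox probe, averaging 10.02, gave -0.68, -1.01, -1.01 and -0.34, so it was lower in the stretched piece of animal 1 too. Col5a3 read 9.46, 9.42, 8.73 and 9.48 in stretched explants against 9.39, 10.25, 9.27 and 9.76 in shortened explants, a difference of -0.39 ± 0.15 (adjusted p = 0.422). On the brightest probes, animal 1 thus differed from the others in Lox, P4ha2 and Col5a3 alike. Its stretched explant also had the widest gap between 3' and 5' control probes of the 8 explants, 0.91 for Gapdh against 0.05 to 0.19 in the other 7, and 1.32 for Actb against 0.49 to 0.98. The part of RNA quality in the values of animal 1 was not tested. Without it the differences were -0.80 for Lox, -0.99 for P4ha2 and -0.55 for Col5a3, and none passed.

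Of the main chains, Col1a1 differed by -0.34 ± 0.12 (adjusted p = 0.407) and Col1a2 by -0.22 ± 0.12 (adjusted p = 0.552). Col3a1 was the 1 gene with a higher mean in stretched explants, with 0.17 ± 0.08 (adjusted p = 0.494) and a higher value in 3 of 4 animals. On its brightest probe Col5a2 was lower in all 4 animals, with -0.14 ± 0.06 (adjusted p = 0.485). Its other probe was higher in all 4, by 0.02 to 0.15 (0.07 ± 0.09, adjusted p = 0.804). Col5a1 differed by -0.09 ± 0.12. Skeletal muscle markers differed by -0.73, 0.10, 5.54 and 5.54 between the stretched and shortened explants of animals 1 to 4. Without animals 3 and 4, the Col1a1 difference was -0.11 and the Lox difference -0.33, while that of P4ha2 was -0.61. With muscle signal as a covariate these were -0.15, -0.32 and -0.59.

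**Figure D3:**
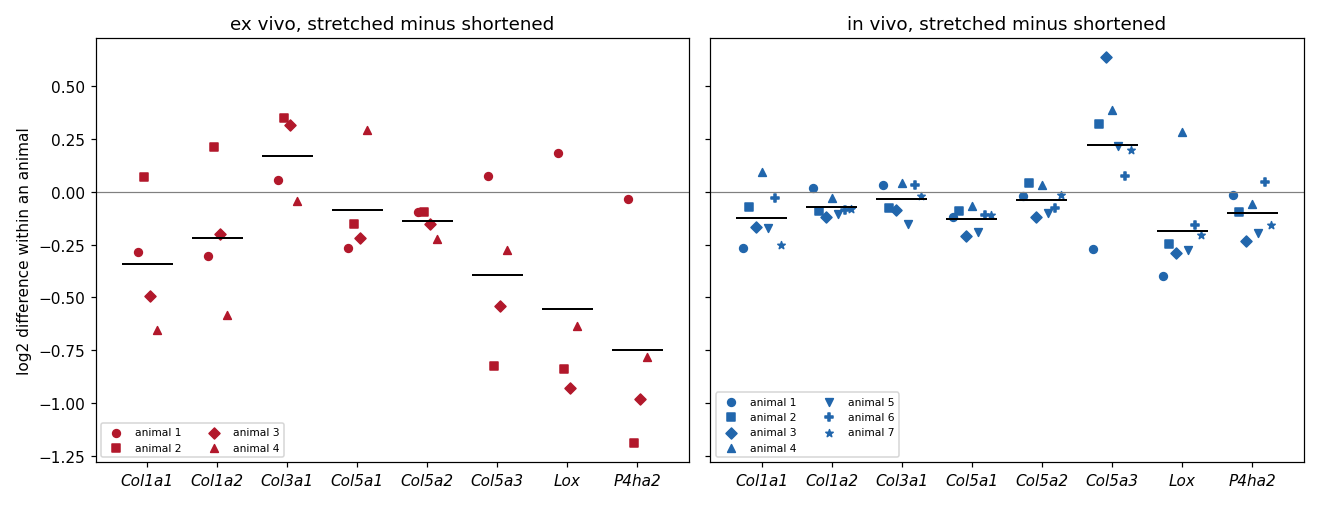
Log2 difference of the stretched minus the shortened piece within each animal, ex vivo (4 animals) and in vivo (7 animals), with bars at the mean. Ex vivo animal 1 lies near or above 0 for Lox, P4ha2 and Col5a3 while animals 2 to 4 lie at -0.28 or lower, and in vivo differences of Col5a1 are below 0 in all 7 animals.

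Genes known to rise in low oxygen averaged lower in the stretched explant of all 4 animals. All 12 measured genes of that list had a negative difference, with a median of -0.54 beside 0.01 over all genes. Of them 11 reached an unadjusted p under 0.05, though none passed after adjustment. Over all probes 11219 of 22626 were negative, and 5.85% were lower at an unadjusted p under 0.05. The part of oxygen in the stretch differences was not tested. The mean of the list differed by -0.20, -0.92, -0.81 and -0.34 in animals 1 to 4. Plod2 differed by 0.35, -1.62, -1.54 and -0.99 in these animals (-0.95 ± 0.31, adjusted p = 0.394). P4ha1 differed by -0.23, -0.26, -0.51 and -0.49 (-0.37 ± 0.08, adjusted p = 0.352).

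**Figure D4:**
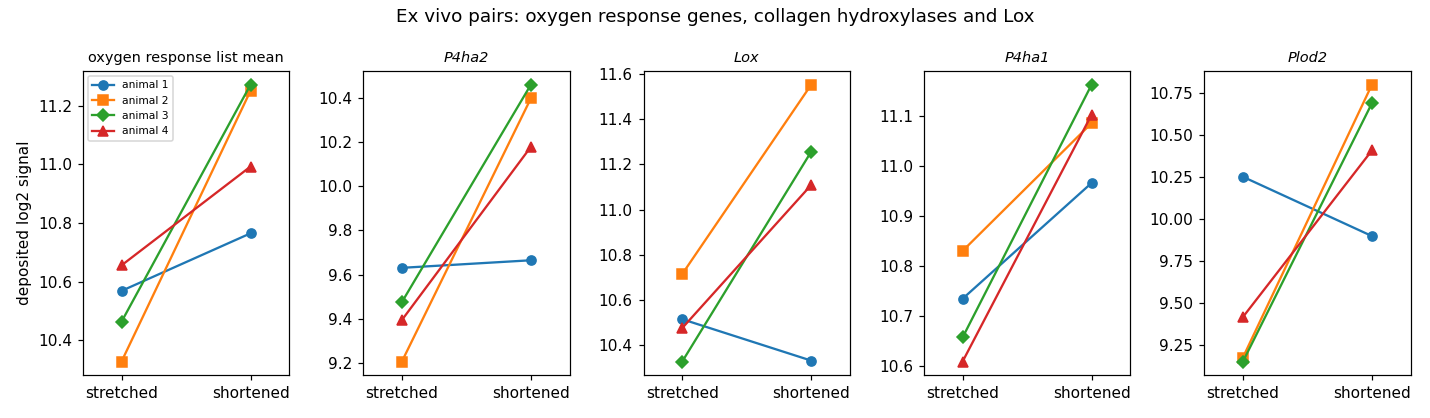
Deposited log2 signal in the stretched and shortened explant of each of 4 animals for the mean of the 12 oxygen response genes and for P4ha2, Lox, P4ha1 and Plod2. On these brightest probes the shortened piece is higher in animals 2 to 4 in every panel, and in animal 1 Lox and Plod2 run the other way. The next brightest Lox probe, not shown, is higher in the shortened piece of animal 1 too.

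Loxl1, Serpinh1 and Bmp1 had positive differences in stretched explants. Loxl1 was higher in all 4 stretched explants, as were 10.8% of all probes, by 0.23 to 1.35 (0.71 ± 0.20, adjusted p = 0.363). Serpinh1 was higher in all 4, by 0.08 to 0.51 (0.30 ± 0.08, adjusted p = 0.363), and so was Bmp1, by 0.04 to 0.70 (0.33 ± 0.12, adjusted p = 0.419). Genes for procollagen cleavage did not all share that sign, as of 5 measured 2 had a positive and 3 a negative difference. Tll1, a protease related to Bmp1, was lower in all 4 stretched explants (-0.56 ± 0.17, adjusted p = 0.369), Pcolce was lower in 3 of 4 (-0.20 ± 0.09, adjusted p = 0.489), and Pcolce2 was higher in 3 of 4 (0.13 ± 0.14). Genes for collagen breakdown had none at an unadjusted p under 0.05, with a median of 0.01.

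In vivo, 7 of the 8 genes had a slightly lower mean in the stretched piece, by 0.18 or less on the log2 scale, and Col5a3 was slightly higher. None of the 8 genes and no probe passed the adjusted threshold (0%). At an unadjusted p under 0.05, Col1a1, Col1a2, Col5a1, Lox and P4ha2 were lower and Col5a3 higher, 6 of 8 genes against 19.3% of all probes, 7.95% higher and 11.4% lower. The median difference of the 8 genes was -0.09, beside -0.01 over all genes.

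Col5a1 was lower in the stretched piece of all 7 animals, by -0.06 to -0.21, a pattern found at 3.68% of all probes. Its difference was -0.13 ± 0.03 (adjusted p = 0.172), close to the spread between animals, whose levels had an SD of 0.15 in stretched and 0.12 in shortened tissue, and the groups overlapped. Lox was lower in 6 of 7 animals, by -0.16 to -0.40, and higher in animal 4, by 0.29. Its difference was -0.18 ± 0.07 (adjusted p = 0.216). Col5a3 was higher in 6 of 7 animals, by 0.07 to 0.64, and lower in animal 1, by -0.27, with a difference of 0.22 ± 0.09 (adjusted p = 0.216).

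Col1a1 differed by -0.12 ± 0.05 (adjusted p = 0.194), lower in 6 of 7 animals, and Col1a2 by -0.07 ± 0.03 (adjusted p = 0.208), also lower in 6. P4ha2 differed by -0.10 ± 0.04 (adjusted p = 0.255). Col3a1 differed by -0.03 ± 0.03 (adjusted p = 0.626) and Col5a2 by -0.04 ± 0.03 (adjusted p = 0.576). Within in vivo animals 1 to 3, the set with the narrow Gapdh gap, the differences kept these signs, with -0.14 for Col5a1, -0.31 for Lox and 0.23 for Col5a3. Within animals 4 to 7 they were -0.12, -0.09 and 0.22.

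The rest of the pathway was mostly lower too, with no gene past the adjusted threshold. Of 15 genes for hydroxylation and folding 14 had a negative difference, 6 of them at an unadjusted p under 0.05. All 5 genes for procollagen cleavage and all 3 other lysyl oxidases were negative. Over all probes 12728 of 22626 were negative, and 11.4% were lower at an unadjusted p under 0.05. P4ha1 was lower in all 7 animals (-0.26 ± 0.06, adjusted p = 0.172), as was Bmp1 (-0.28 ± 0.07, adjusted p = 0.172). Loxl1 differed by -0.18 ± 0.06 (adjusted p = 0.181), Plod2 by -0.06 ± 0.06 and Serpinh1 by -0.06 ± 0.06. Cell type markers moved with them, as all 10 skeletal muscle markers were higher in stretched tissue, with a median of 2.22, and all 10 fibroblast markers lower, with a median of -0.18. All 5 adipocyte markers were higher too, with a median of 0.54, and 4 of 5 endothelial markers, with a median of 0.38. All 7 macrophage markers were lower, with a median of -0.15. The adipocyte mean was lower in the stretched piece of animal 1, by -0.62, and higher in that of every other animal, by 0.05 to 1.03. With muscle signal as a covariate the differences were -0.10 for Col5a1, -0.12 for Col1a1 and 0.22 for Col5a3. The part of fibroblast, adipocyte, endothelial and macrophage content was not tested.

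**Figure D5:**
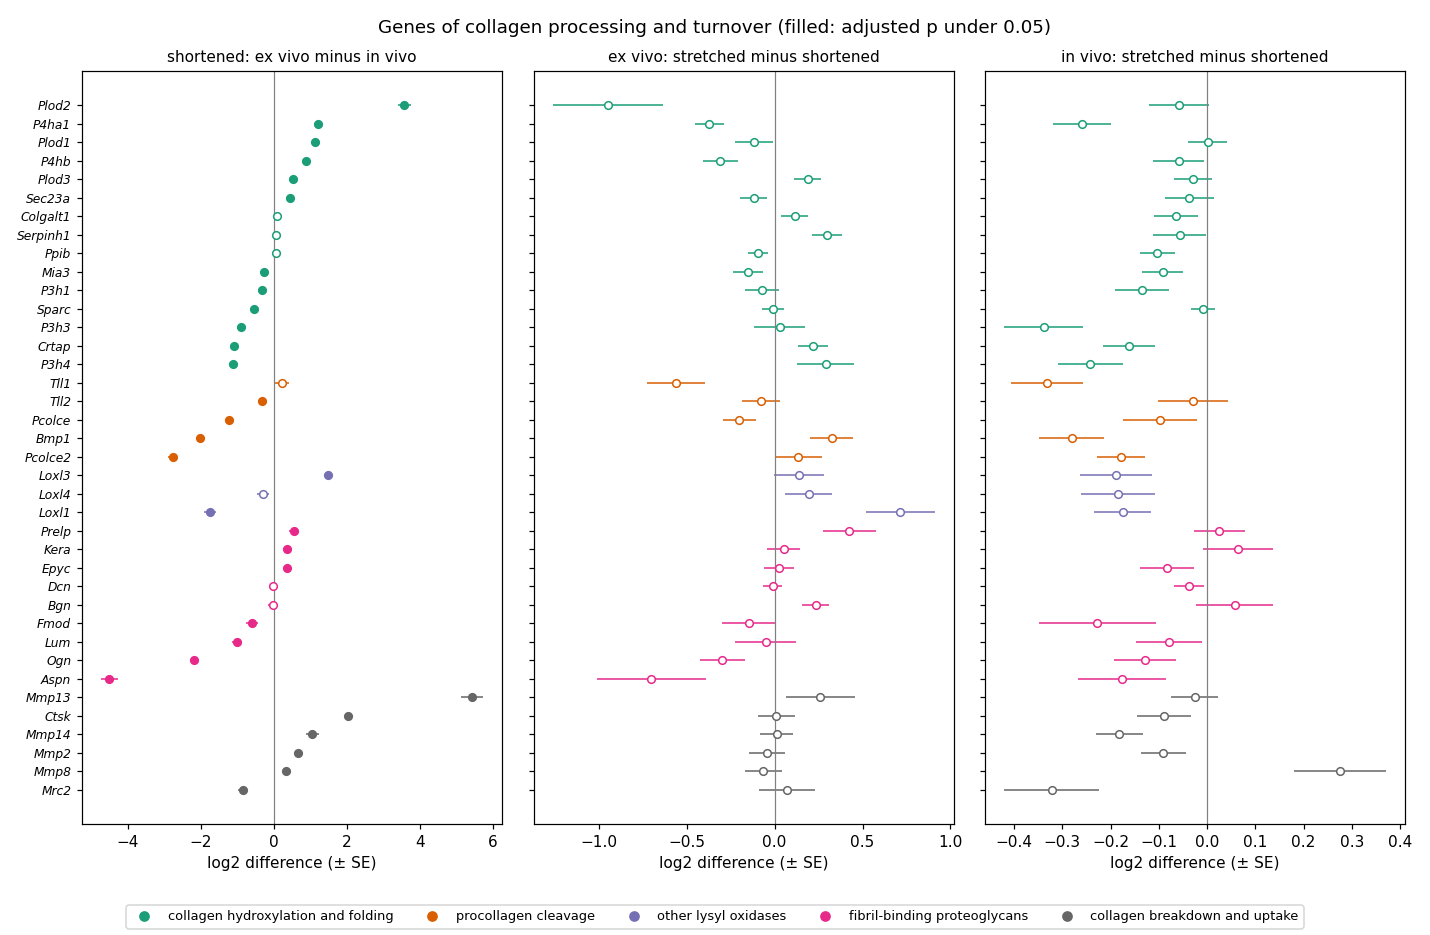
Log2 difference with its SE for genes of collagen processing and turnover, in shortened tissue ex vivo minus in vivo, and in stretched minus shortened tissue ex vivo and in vivo. Filled points passed an adjusted p under 0.05, and the horizontal scales differ. Mmp13, with 5.43, and Aspn, with -4.51, bound the first panel, and no point is filled in either stretch comparison.

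The stretch differences of the settings were set against each other by an interaction term over all 22 samples. None of the 8 genes passed, against 40 probes or 0.177%. On the brightest probes, at an unadjusted p under 0.05, P4ha2 and Col5a3 had a lower and Col3a1 a higher stretch difference ex vivo than in vivo. Over all probes 15.3% reached it, 8.56% higher and 6.74% lower. The interaction was -0.65 ± 0.17 for P4ha2 (adjusted p = 0.107), -0.62 ± 0.18 for Col5a3 (adjusted p = 0.126), 0.20 ± 0.08 for Col3a1 (adjusted p = 0.239) and -0.37 ± 0.19 for Lox (adjusted p = 0.370). Dimmer probes gave -0.82 ± 0.26 for Col1a1, -0.58 ± 0.16 for Lox, -0.25 ± 0.10 for Col1a2 and 0.48 ± 0.15 for Col3a1. These also had an unadjusted p under 0.05 and did not pass, and the remaining dimmer probes did not reach it. The Col5a2 probes had opposite signs, with -0.10 ± 0.06 for the brightest and 0.14 ± 0.08 for the other. Without ex vivo animal 1, 3 genes passed, P4ha2 with -0.88 (adjusted p = 0.00266), Lox with -0.62 (adjusted p = 0.0300) and Col5a3 with -0.77 (adjusted p = 0.0349), among 663 probes. Animal 1 is the one whose stretched explant had the wide Gapdh gap of 0.91, and the part of that in these calls was not tested. Without ex vivo animal 3 or in vivo animal 2 the count of probes was 0, and without ex vivo animal 4 it was 331.

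In the same comparison Loxl1 had an interaction of 0.89 ± 0.19 (adjusted p = 0.0749) and Bmp1 of 0.61 ± 0.13 (adjusted p = 0.0802), close to the threshold but not past it. Of the oxygen response list, Hilpda, a lipid droplet protein, passed with -0.98 ± 0.14 (adjusted p = 0.0455), and Vegfa, the vascular growth factor, with -0.96 ± 0.16 (adjusted p = 0.0464). Both lay just under the threshold, and both calls were lost without ex vivo animal 3 or in vivo animal 2, where no probe passed.

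How the genes varied from piece to piece was described over 22 samples as deviations from the means of the 4 groups, which share the animals' pairs. Col1a2 and Col3a1 varied together most closely, with Pearson r of 0.774, followed by Col1a1 with Col5a2 (0.526) and Lox with Col5a3 (0.516). Col3a1 and P4ha2 ran against each other, with r of -0.566. Among all other genes, those most like the mean of the 6 collagens were Pth1r (0.842), Cd81 (0.824), Sall2 (0.820), Pla2g2e (0.807) and Ncstn (0.807). That mean was not scaled by gene, so chains that varied widely weigh most in it. In in vivo shortened tissue the SD was 0.44 for Col1a1 and 0.35 for Col5a3, against 0.06 for Col1a2 and Col3a1. The chains did not all vary together, with r of -0.464 for Col1a2 with Col5a3. The part of RNA quality in these likenesses was not tested. Those most like Lox were Aff4 (0.889), Dpyd (0.776) and Adgrl1 (0.760), and those most like P4ha2 were Pfkp (0.815), Nts (0.800) and Tbl2 (0.768).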

How the data were processed

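RNA of 22 pieces of mouse subcutaneous tissue was extracted with Tri-Reagent and measured as biotin-labelled cRNA. The authors deposited values on the log2 scale. Per the submitters' processing notes the arrays were processed with RMA and affy, whose versions are not given in the sources used here. Samples were grouped by their titles.

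All 22626 probes that were not among the 64 controls of the 22690 on the table were tested. Of these, 20380 carried 1 gene symbol, 691 several and 1555 none in the platform's annotation. The 12393 genes were read from their brightest probe, 4956 of them having several. Symbols of 29 probes had no match in the RefSeq table and were kept as written.

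Tests used limma 3.58.1 in R 4.3.3 (lmFit, eBayes with a mean-variance trend) over all probes, with Benjamini-Hochberg adjustment. Stretch comparisons had the animal as a block, since the series design compares pieces within an animal. Pieces of 1 animal correlated in their deviations from the group means with r of 0.109 to 0.284 ex vivo and 0.385 to 0.867 in vivo. Comparisons of settings used arrays centred on their medians, with no block. The number of arrays limits the precision. On simulated data, 88.1% of probes changed by 1 on the log2 scale were found in the ex vivo stretch comparison, 23.9% of those changed by 0.5, and 85.1% of those changed by 0.5 in the in vivo one. In the data themselves, the 10 skeletal muscle markers differed by a median of 2.22 in vivo and none passed. The simulated shares thus do not hold for probes whose differences vary widely between animals.

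The genes and gene lists were chosen with earlier results of these data known. Beside the 9 genes, up to 4 genes of a list with the smallest p in a comparison are named, with P4ha1, Serpinh1, Plod2, Bmp1 and Loxl1 in both stretch comparisons. Alternatives were quantile normalization, other centring, only probes averaging 6 or more, no trend, robust eBayes, the mean of all probes of a gene, and muscle signal as a covariate. Others left out the pairs whose pieces differed most in muscle signal (ex vivo animals 3 and 4, in vivo animals 5 and 6). In vivo animals 3, 4 and 7, with muscle markers averaging 10.15 or more in both pieces, stayed in. Further runs used no block, the 2 in vivo sets by Gapdh gap, and each animal or sample left out. The comparison of settings with in vivo animals 1 to 3 alone, and the counts of list genes on the values as deposited, were added after seeing the data.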

Additional observations from a re-analysis of the deposited data

Results flagged for a closer look

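Of 48 groups of levels and pair differences examined for a sample far from its group, 4 had one, and chance gives about 1 in 20. Col3a1 in in vivo shortened tissue had 1 low sample at 13.56 (animal 6). Col5a3 had a low sample at 8.729 among the stretched explants (animal 3) and another at 9.335 in in vivo stretched tissue (animal 1). The Lox difference of stretched minus shortened tissue in vivo was high in 1 animal, at 0.2858 (animal 4).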

How the results depend on the processing

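In both stretch comparisons the counts of 0 genes and 0 probes held under every alternative run. Without the block, no gene of the 8 passed in any stretch comparison, and the interaction had 3 probes. Its 40 probes became 5 with quantile normalization, 74 among probes with a mean of at least 6 and 4 without the trend. They became 8 with muscle as a covariate and 9 without the pairs that differed most in muscle signal. With 1 animal left out they were 0 to 663 (663 without ex vivo animal 1, 331 without ex vivo animal 4), and the genes that passed were 0 to 3. For settings, 7 of 8 genes passed without any 1 sample in shortened tissue and 6 to 7 in stretched tissue. Taken per gene as the mean of its probes, 8295 genes passed in shortened and 7958 in stretched tissue, fewer because genes and not probes were tested, and 9473 probes with a mean of at least 6 passed in stretched tissue. Signs turned only for genes whose difference in the main run did not pass. With muscle as a covariate, in vivo stretch gave 0.010 for Col3a1 and 0.0031 for Col5a2. The interaction turned to 0.017 for Col5a2 with the mean of all probes. Without the pairs that differed most in muscle signal it turned to 0.025 for Col1a1, 0.014 for Col1a2 and -0.091 for Col5a1. The Col5a1 range with 1 animal left out was -0.084 to 0.10. Shortened Col5a3 gave 0.096 without the pairs that differed most in muscle signal, 0.062 against in vivo animals 1 to 3 and -0.30 to 0.018 with 1 sample left out. Stretched P4ha2 gave -0.0013 with quantile normalization and -0.049 to 0.087 with 1 sample left out. As deposited it gave -0.42, which passed. As deposited, shortened Col5a3 passed, with -0.57. The causes were not tested. With 4 explant pairs, differences of about 0.5 were mostly not detectable.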
